A study of Rattus norvegicus with 8 samples.

Results

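Transcripts of 10 genes of the autophagy machinery (Ulk1, Becn1, Atg5, Atg7, Wipi1, Map1lc3b, Gabarap, Gabarapl1, Sqstm1 and Tfeb) were followed in rat macrophages exposed to carbon nanotubes. The genes were chosen by name, and all 19 probes carrying these names among the 45598 probes of the array were used. The cells were NR8383, a continuous line of alveolar macrophages that began from the lung lavage of a normal rat, so all 8 samples come from 1 line. The 4 control samples and the 4 exposed samples both spent 4 h in medium without fetal bovine serum, and differed in the multi-walled carbon nanotube NM401, absent from the controls (0 µg/mL) and present at 0.17 µg/mL in the others. Cy3-labelled cRNA of each sample was hybridised to its own 1-colour array, and the comparison asks which transcripts differed after exposure. The labels call the 4 samples of a group biological replicates, and p-values measure the spread between those samples only. The number of arrays limits the precision, and RNA from a whole dish cannot tell fewer cells from less RNA per cell.

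Macroautophagy encloses cytoplasm in a double membrane and delivers it to lysosomes. The ULK1 kinase starts the process, the Beclin 1 lipid kinase complex marks the membrane with PI3P, and a ubiquitin-like conjugation system attaches ATG8 proteins (the LC3 and GABARAP families) to the growing membrane, where receptors such as p62 bring in cargo. TFEB is the transcription factor that turns on lysosomal and autophagy genes when it enters the nucleus, and macrophages use the same machinery to handle engulfed particles. TFEB and ULK1 are controlled largely by phosphorylation, which an array does not measure.

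Levels below are log2 of the background-subtracted signal minus the 75th percentile of that array, so that 0 is the 75th percentile, and a difference is the NM401 mean minus the control mean with the standard error (SE) of the limma fit. The unscaled 75th percentile was 958 to 1489 on control arrays and 2537 to 2878 on NM401 arrays, a log2 difference of 1.14, and 51.7% to 58.0% of spots were well above background. The 7 spike-in probes that were well above background on every array differed by -2.29 after scaling (-2.55 to -1.80 by probe) and by -1.15 before it. Differences set against the spike-ins would thus lie 2.29 above those given here. That is more than the size of any fall given below for a member or a gene of the wider autophagy lists. What the spike-ins and the 75th percentile contribute to the results was not tested. Slide 1 held the 4 control arrays and NM401 replicate 1, and slide 2 the other NM401 arrays. Every control sat in row 1 of its slide and every NM401 array in row 2, so row and exposure cannot be told apart. Of 10 macrophage markers, 8 were well above background on all 8 arrays and Marco on none, with a summed level of 7.13 to 7.21 in control and 6.96 to 7.04 in NM401. Of 8 epithelial markers none passed that mark on all arrays, and Epcam, Cdh1, Krt8, Krt18 and Aqp5 were so on none. On all arrays 3 of 7 lymphocyte markers were well above background (Cd3d, Cd4 and Nkg7, with Cd3e and Cd8a among those so on none), and the summed level of that list was 0.05 to 0.30 in control and -1.08 to -0.81 in NM401. The fibroblast and endothelial list had 5 of 8 (Col1a1, Col3a1 and Pdgfra on none) and sums of 1.54 to 1.92 against 1.63 to 1.68. A sum follows the brightest genes of its list and can hide changes of single genes. In this list Dcn differed by 1.49, Col1a2 by -1.20 and Cdh5 by -1.15. The neutrophil list had 1 of 8 (Camp, with Elane, S100a9, Csf3r, Cxcr2 and Ngp on none). Its sums were -1.04 to -0.57 against -1.62 to -1.17. By the test used below, 3 of 9 tested macrophage markers were higher and 3 lower, beside 21.9% and 35.4% of all genes. Among the higher, Adgre1 was well above background on 1 control and 4 NM401 arrays and reached the test through the NM401 group. All 3 tested lymphocyte and all 3 tested neutrophil markers were lower. Mpo and S100a8 reached the test through the control group. Of 5 tested fibroblast and endothelial markers 1 was higher and 2 lower. The part of these markers in the results was not tested.

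After exposure, 4 members were lower by their brightest probe, Ulk1, Atg7, Gabarap and Map1lc3b, and 1 was higher, Atg5, while Becn1, Gabarapl1, Sqstm1 and Tfeb did not pass the test (limma, Benjamini-Hochberg adjusted p below 0.05 over 21684 probes). Wipi1 was too dim to test, so 9 of the 10 members had a tested probe. At the same threshold 57.3% of all 17444 genes were called, 21.9% higher and 35.4% lower, and the 5 called members of 9 stand near that background. The median difference of the 9 was -0.11, beside -0.10 over all genes. By probe, 3 of 17 tested probes were higher and 7 lower, where 56.2% of all tested probes were called, 22.1% higher and 34.1% lower. The 7 include Atg7 probe A_44_P1105100, which reached the test through the control group. Among probes well above background on all 8 arrays, 3 were higher and 6 lower. The ranges of both groups were separate for 5 of the 9 members, and for 53.2% of all genes. Scaled to the array median instead, 5 members were higher and 1 lower, and with quantile normalisation 3 were higher and 3 lower, as the splits of all genes also moved: 38.2% of all calls were higher as given, 49.5% with quantile normalisation and 80.7% with median scaling.

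**Figure D1:**
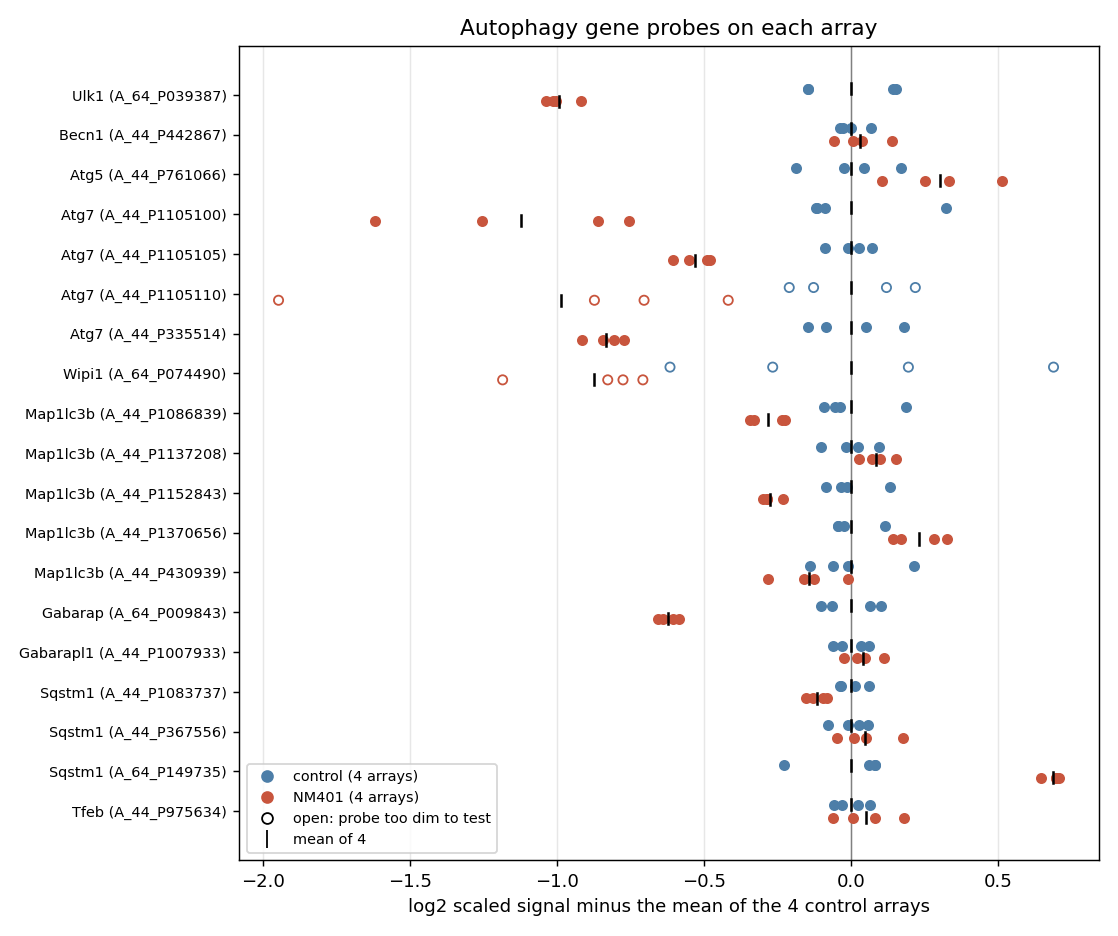
Each point is 1 array for 1 probe of a member, as the log2 scaled signal minus the mean of that probe's 4 control arrays, with control in blue, NM401 in red, open circles for the 2 probes too dim to test, and a bar at each mean of 4. The NM401 points of Ulk1, Gabarap and the tested Atg7 probes lie left of every control point, those of Sqstm1 probe A_64_P149735 lie right of them, and those of Becn1, Gabarapl1 and Tfeb lie among them.

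Ulk1, the kinase that starts autophagosome formation, had the largest tested difference among the members' brightest probes. Its probe (A_64_P039387, NM_001108341) lies at chr12:46022440-46022499 of build rn4. Its level was 1.64, 1.35, 1.65 and 1.35 in control replicates 1 to 4 and 0.58, 0.46, 0.49 and 0.48 in NM401 replicates 1 to 4. All NM401 arrays lay below all control arrays, with a gap of 0.77 between the groups. The difference was -0.99 ± 0.09 (SE, n = 4 and 4), a 1.99-fold lower level (limma adjusted p = 0.000102), and 6.50% of all genes had a lower difference. Before scaling, its signal was 2442 to 4107 on control arrays and 3486 to 4295 on NM401 arrays, so the unscaled values overlapped while the rest of the array was brighter. Ulk1 was lower and called under all 19 alternative settings, with differences from -1.04 to -0.63 (adjusted p 2.13e-05 to 0.0415).

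Becn1 encodes Beclin 1, the scaffold of the class III PI3-kinase complex that marks the forming membrane. Its probe (A_44_P442867) spans chr10:90318654-90319457 of rn4, 804 bases for a probe of 60, so it joins sequence from both sides of an intron and reads spliced RNA. The level was 0.99, 1.09, 0.99 and 1.02 in control and 1.16, 0.96, 1.06 and 1.03 in NM401, and the groups overlapped. The difference was 0.03 ± 0.06 (SE), with a 95% interval of -0.10 to 0.17 (limma adjusted p = 0.674), and its sign turned with the deposited series values and without NM401 replicate 1. It was called higher with median scaling (0.40, adjusted p = 0.00264), a setting that moved the median of all genes to 0.27.

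Atg7 is the E1-like enzyme that activates both ATG12 and the ATG8 proteins for conjugation. The array had 4 probes for it on chromosome 4, each drawn from a different transcript record, and the one designed on the curated transcript is shown because it crosses a splice junction and so reads spliced Atg7 RNA.
Atg7 A_44_P335514: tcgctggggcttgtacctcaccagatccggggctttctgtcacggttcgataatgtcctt
This probe spans chr4:150854179-150866191 of rn4, 12013 bases. Its level was 0.20, 0.14, 0.34 and 0.47 in control and -0.63, -0.52, -0.56 and -0.49 in NM401, with no overlap. The difference was -0.84 ± 0.08 (SE), 1.78-fold lower (limma adjusted p = 0.000134), and it stayed called lower under all 19 alternatives.

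The brightest Atg7 probe (A_44_P1105105, predicted variant X2, chr4:150993864-150993923) had levels of 0.32, 0.17, 0.28 and 0.24 in control and -0.24, -0.30, -0.35 and -0.23 in NM401. The groups did not overlap, and the difference was -0.53 ± 0.06 (SE), 1.45-fold lower (limma adjusted p = 0.000202). That call was lost with median scaling (-0.16, adjusted p = 0.135) and within slide 1 (-0.49, adjusted p = 0.0529). The probe of predicted variant X1 (A_44_P1105100, chr4:150915074-150915133) was near background, well above it on 4 control and 2 NM401 arrays. Its levels were -5.14, -5.13, -4.69 and -5.11 in control and -5.77, -6.28, -5.88 and -6.64 in NM401, a difference of -1.12 ± 0.20 (SE, limma adjusted p = 0.00196), lost with slide as a block (-0.75, adjusted p = 0.0809). The probe of predicted variant X3 (A_44_P1105110) was well above background on 1 control array and no NM401 array and was not tested. No fold is given for it. The curated transcript probe and the variant X2 probe thus moved one way, by unequal amounts. The X1 probe also had a negative difference, but it reached the test through the control group, so its call is not counted with them.

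Atg5 forms, with ATG12 and ATG16L1, the complex that directs ATG8 proteins onto membrane lipid. Its probe (A_44_P761066, chr20:48366259-48366318 of rn4) was dim. The level was -3.29, -3.42, -3.49 and -3.65 in control and -2.95, -3.13, -3.21 and -3.36 in NM401. NM401 replicate 4 lay below control replicate 1, so the groups overlapped. The difference was 0.30 ± 0.11 (SE), 1.23-fold higher (limma adjusted p = 0.0400). With normexp background correction the sign turned (-0.01), and the call was lost in 9 further alternatives, 6 of which left out 1 array (control replicates 2, 3 or 4, or NM401 replicates 1, 2 or 3; differences 0.23 to 0.32, adjusted p 0.0632 to 0.0897).

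Wipi1 encodes a PI3P-binding protein that marks the early autophagosome membrane, and its transcript is a known TFEB-responsive readout in other cells. Its probe (A_64_P074490, chr10:98749014-98749073) was not well above background on any of the 8 arrays. The background-subtracted signal before scaling was 4.20 to 9.28 in control and 6.18 to 7.98 in NM401, and no fold is given.

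The ATG8 family coats the autophagosome membrane and binds cargo receptors, and 3 of its members were followed. Gabarap (A_64_P009843, chr10:56840599-56840658) had levels of 4.96, 5.16, 5.12 and 5.00 in control and 4.42, 4.46, 4.40 and 4.47 in NM401. Every NM401 array lay below every control array, by at least 0.49. The difference was -0.62 ± 0.06 (SE), 1.54-fold lower (limma adjusted p = 0.000144), and with median scaling it kept its direction without passing the test (-0.25, adjusted p = 0.0670). Gabarap is among the bright probes, and bright probes as a class shifted: over the 666 genes with a mean level of 4 or more the median difference was -0.37, with 71.8% called lower and 4.20% called higher. The scanner software marked no spot as saturated on any array. What the shift of bright probes contributes to the difference of Gabarap was not tested.

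Gabarapl1, a close relative of Gabarap that is often induced on starvation, was read by a probe printed 10 times on each array (A_44_P1007933, chr4:166811168-166811227). Its level was 3.82, 3.76, 3.85 and 3.73 in control and 3.90, 3.84, 3.77 and 3.81 in NM401, and the groups overlapped. The difference was 0.04 ± 0.05 (SE), with a 95% interval of -0.09 to 0.16 (limma adjusted p = 0.563). It became a call in the higher direction with quantile normalisation (0.23, adjusted p = 0.00683) and median scaling (0.41, adjusted p = 0.00504). A ratio of the 2 probes on the same array does not depend on scaling by 1 factor. A shift tied to brightness would still move it. Over the 4 control arrays Gabarap minus Gabarapl1 was 1.27 ± 0.11 (SD), and over the 4 NM401 arrays 0.61 ± 0.06 (SD), a shift of -0.66. This ratio is 1 of 3 described here, all chosen after the values of their probes were seen, so no test is given. The shift was -0.55 with quantile normalisation and -0.75 within slide 1.

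Map1lc3b encodes LC3B, the ATG8 protein used most often to mark autophagosomes. It had 5 tested probes on chromosome 19 that did not move together, and the one shown is that which went up. It starts at base 252 of the transcript and crosses a splice junction (chr19:51852782-51853426 of rn4, 645 bases).
Map1lc3b A_44_P1370656: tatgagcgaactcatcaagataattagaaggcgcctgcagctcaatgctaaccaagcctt
Its level was 0.93, 0.94, 1.08 and 0.92 in control and 1.11, 1.29, 1.25 and 1.14 in NM401. The groups were 0.03 apart, and the difference was 0.23 ± 0.06 (SE), 1.17-fold higher (limma adjusted p = 0.0177). The call was lost with slide as a block (0.14, adjusted p = 0.308), within slide 1, without the filter on dim probes, and without NM401 replicate 2 (0.20, adjusted p = 0.0536) or 3 (0.21, adjusted p = 0.0516).

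The brightest Map1lc3b probe (A_44_P1152843, chr19:51854787-51854846) starts at base 1672 of the same transcript. Its level was 3.46, 3.39, 3.61 and 3.44 in control and 3.17, 3.24, 3.19 and 3.19 in NM401. All NM401 arrays were below all control arrays, and the difference was -0.28 ± 0.06 (SE), 1.21-fold lower (limma adjusted p = 0.00517), though the sign turned with median scaling (0.09) and the call was lost with quantile normalisation (-0.13, adjusted p = 0.0867), with slide as a block (-0.30, adjusted p = 0.0542), within slide 1 (adjusted p = 0.159) and for the mean of the gene's 5 probes (-0.08, adjusted p = 0.309). A_44_P1086839 shares 43 bases with it and differed by -0.28 ± 0.07 (SE), also lower except with median scaling (0.08) and not called with quantile normalisation or slide as a block, and the pair is not independent. The probe at base 609 (A_44_P1137208, printed 10 times) differed by 0.09 ± 0.06 (SE), and A_44_P430939, designed on an older record, by -0.14 ± 0.09 (SE, 0.22 with median scaling), and neither passed the test. On the same array, A_44_P1370656 minus A_44_P1152843 went from -2.50 ± 0.04 (SD over 4 control arrays) to -2.00 ± 0.07 (SD over 4 NM401 arrays), by 0.51, by 0.42 with quantile normalisation and by 0.44 within slide 1, in a pair chosen because one probe was higher and the other lower.

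Sqstm1 encodes p62, the receptor that links ubiquitinated cargo to LC3 and is itself degraded by autophagy, and its gene is also a target of the oxidative stress factor NRF2. The array had 3 probes for it on chromosome 10, where the gene runs toward lower coordinates. The sequences of 2 are shown because they were designed on different transcript variants and gave different results. The first lies within transcript variant 1, and of the second, designed on transcript variant 2, the first 30 of its 60 bases are given.
Sqstm1 A_44_P367556: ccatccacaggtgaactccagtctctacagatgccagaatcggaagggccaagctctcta
Sqstm1 A_64_P149735: tggcctaaagtccagaagttcctacaatca
The variant 2 probe (A_64_P149735, chr10:35759331-35759390) had levels of 1.73, 2.02, 2.04 and 2.04 in control and 2.65, 2.67, 2.65 and 2.60 in NM401. All NM401 arrays lay above all control arrays by at least 0.56. The difference was 0.69 ± 0.08 (SE), 1.61-fold higher (limma adjusted p = 0.000266). It was higher under all 19 alternatives (0.61 to 1.05) and just missed the threshold within slide 1, where NM401 has 1 array (0.70, adjusted p = 0.0531).

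The brightest Sqstm1 probe, at base 1928 of variant 1 (A_44_P1083737, chr10:35751303-35751362), had levels of 4.36, 4.31, 4.41 and 4.32 in control and 4.25, 4.27, 4.22 and 4.20 in NM401. The groups were 0.04 apart without overlap, and the difference was -0.11 ± 0.05 (SE), with a 95% interval of -0.23 to -0.003 and a limma adjusted p of 0.0745. Its sign turned with quantile normalisation (0.14, adjusted p = 0.0323) and median scaling (0.25, adjusted p = 0.0461). The other variant 1 probe (A_44_P367556, chr10:35753589-35753648) had levels of 2.06, 1.99, 2.13 and 2.10 in control and 2.08, 2.12, 2.25 and 2.02 in NM401, which overlapped. Its difference was 0.05 ± 0.06 (SE, limma adjusted p = 0.553), called higher with median scaling (0.41, adjusted p = 0.00754).

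Set against the brightest probe on the same array, the variant 2 probe stood at -2.40 ± 0.17 on control arrays and at -1.59 ± 0.02 on NM401 arrays (SD, n = 4 each). The shift was 0.80, with 0.63 under quantile normalisation and 0.79 within slide 1, and this pair too was chosen for its contrast and has no test. In each of the 3 ratios the brighter probe was the one that fell against the dimmer. The median difference of all genes was -0.37 at a mean level of 4 or more, -0.18 from 2 to 4 and -0.07 from 0 to 2. What this shift with brightness contributes to the ratios was not tested. The files do not say which other transcripts each probe can bind.

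**Figure D2:**
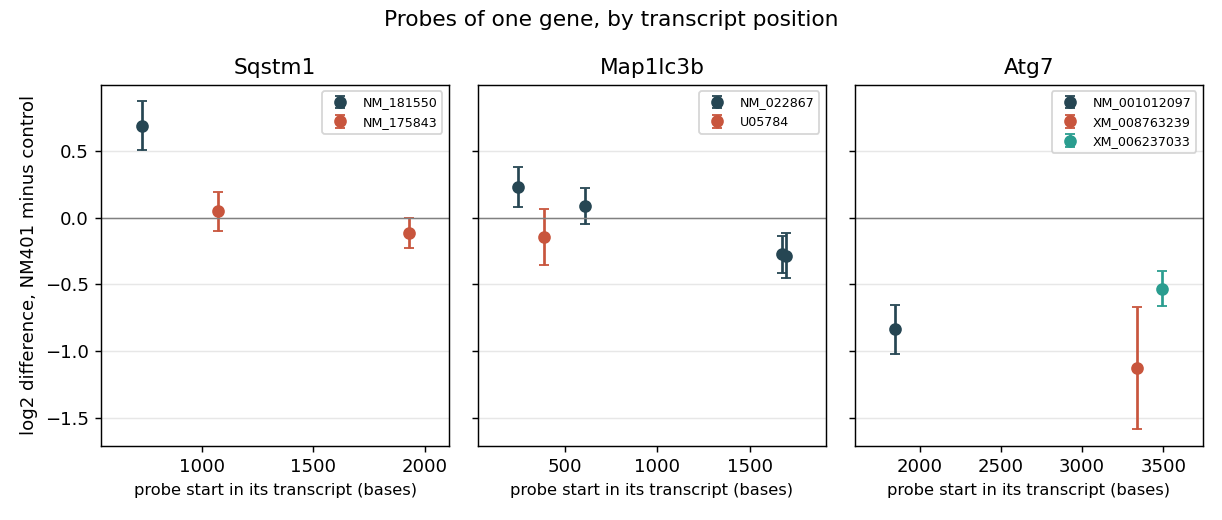
Each point is 1 tested probe, placed by the base of its transcript at which it starts and by its log2 difference (NM401 minus control) with the 95% interval, coloured by the transcript record it was designed on. The Sqstm1 variant 2 probe (NM_181550) stands at 0.69 above the variant 1 probes, the Map1lc3b probes lie between 0.23 (base 252) and -0.28 (base 1672) with no steady order along the transcript, and all 3 Atg7 probes are below 0.

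Tfeb, the transcription factor of the set, was read by 1 probe (A_44_P975634, chr9:8665358-8665417). Its level was -1.92, -1.96, -2.04 and -2.01 in control and -2.04, -1.90, -1.80 and -1.97 in NM401. The groups overlapped, and NM401 replicate 3 was the highest of the 8 arrays. The difference was 0.05 ± 0.07 (SE), with a 95% interval of -0.10 to 0.20 (limma adjusted p = 0.526). Its sign turned in 4 alternatives (normexp background correction, the deposited series values, and slide as a block or within slide 1), and median scaling made it a call in the higher direction (0.42, adjusted p = 0.00838).

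TFEB binds the letters CACGTG, and the element named after its lysosomal targets (CLEAR) extends them to GTCACGTG. Of the 9 members whose promoter is in the RefSeq table used (build GRCr8, 250 bases before to 50 after the start, with Becn1 the member not matched), 1 held CACGTG, that of Atg5, and none held GTCACGTG on either strand. Among all 33469 promoters of 300 bases, 6.42% held CACGTG and 1.85% held GTCACGTG. The 250 bases before the Atg5 start (GRCr8, chr20:49380585-49380834, plus strand) are shown with the match, which begins 19 bases before the start, in capitals.
Atg5 promoter: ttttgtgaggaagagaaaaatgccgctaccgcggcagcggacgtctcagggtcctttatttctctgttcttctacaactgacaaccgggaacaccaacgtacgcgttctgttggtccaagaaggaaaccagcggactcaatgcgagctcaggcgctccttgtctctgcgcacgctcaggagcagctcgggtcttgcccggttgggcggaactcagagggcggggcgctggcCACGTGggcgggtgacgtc
The match is a description of the letters, and says nothing of binding in these cells.

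**Figure D3:**
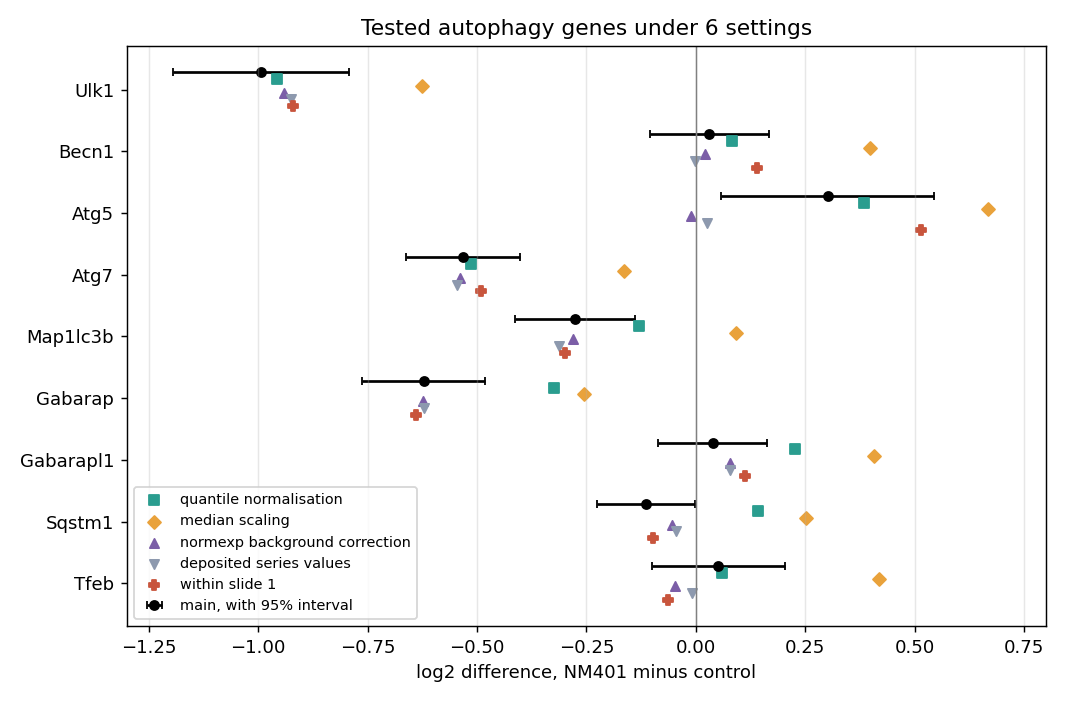
The log2 difference (NM401 minus control) of the brightest probe of each tested member is plotted with its 95% interval in black, and with coloured markers under 5 alternative settings. Median scaling lies right of every other setting in 9 of 9 members, and Ulk1 stays between -0.99 and -0.63. The markers of Becn1, Atg5, Map1lc3b, Sqstm1 and Tfeb fall on both sides of 0.

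The wider pathway was described with 116 further genes in 11 lists by role, of which 107 were tested. Of these 21 were higher and 33 lower, with a median difference of -0.11, so the lists as a whole stand near the 21.9% and 35.4% of all genes. The counts of each list below are to be read beside those shares, and no list was tested as a set.

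Around the member Ulk1, 2 of 4 tested subunits or relatives were lower and none higher. Ulk2, its paralog, fell from -3.67 ± 0.17 (SD, n = 4) to -4.38 ± 0.08, by 0.70 on the log2 scale. Its other tested probe differed by -0.03 and was not called. Rb1cc1, the FIP200 scaffold, differed by -0.37 ± 0.10 (SE), but another called probe of it differed by 0.28. Atg13, a regulatory subunit, differed by -0.15 ± 0.21 (SE, limma adjusted p = 0.550) and changed sign with the scaling (0.03 with quantile normalisation). Around Becn1, 3 of 7 tested genes were lower and 2 higher. The lipid kinase Pik3c3 (-0.55 ± 0.05 SE), its regulatory subunit Pik3r4 (-0.66 ± 0.06) and Ambra1, which positions the complex (-0.62 ± 0.07), were all lower, while Beclin 1 itself was not called. Bcl2, which binds and restrains Beclin 1 and is named after its value was seen, counts as one of these higher genes, but its probe was well above background on 1 control and 4 NM401 arrays, so it reached the test through the NM401 group. Its mean level was -6.84 in control and -5.22 in NM401, and its difference was -0.09 under normexp correction and 0.02 with the deposited series values. In the list of ATG9, lipid transfer and PI3P binding proteins, the home of Wipi1, 3 of 8 tested genes were lower and none higher. They were the lipid transfer proteins Atg2a (-0.60 ± 0.06) and Atg2b (-0.47 ± 0.12) and the PI3P binder Wdr45b (-0.23 ± 0.07, 0.14 with median scaling, lost in 7 alternatives, namely quantile normalisation, no filter on dim probes, within slide 1, the replicate block (adjusted p = 0.0623), and without control replicate 3 or NM401 replicate 3 or 4, adjusted p 0.0505 to 0.0528).

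The conjugation machinery that works beside Atg5 and Atg7 had 5 of 9 tested genes higher and 1 lower, with a median of 0.48. Over all genes 21.9% were higher and 35.4% lower, with a median of -0.10. Atg16l2, a paralog of Atg16l1, rose from -2.02 ± 0.09 (SD, n = 4) to -1.01 ± 0.14, by 1.00 ± 0.08 (SE, limma adjusted p = 8.77e-05). The protease Atg4c rose by 0.61 ± 0.10 (SE), and Atg16l1, the partner of ATG5 that locates the conjugation site, by 0.48 ± 0.08. The E2-like enzyme Atg3 (0.58 ± 0.11) and the protease Atg4a (0.50 ± 0.09) were the others higher, and the E2-like enzyme Atg10 was lower (-0.37 ± 0.08). Atg3, Atg4a and Atg10 are named after their values were seen. The array describes the probe counted as Atg4a as autophagy related 4A, cysteine peptidase-like 1 (Atg4al1). By its brightest probe the activating enzyme Atg7 was lower (not called with median scaling, -0.16), while Atg3, which receives ATG8 proteins from it, was higher. These 2 genes were set side by side after their values were seen. Of the other 2 ATG8 genes, Map1lc3a was lower (-0.65 ± 0.05) and Gabarapl2 differed by -0.10 ± 0.05 (limma adjusted p = 0.113, and 0.27 with median scaling). Another Gabarapl2 probe was called lower (-0.17), as was the mean of its probes (-0.14, limma adjusted p = 0.0369).

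Among other cargo receptors and mitophagy factors, 7 of 15 tested genes were lower and 2 higher. Tax1bp1, a receptor for ubiquitinated cargo like p62, was higher (0.64 ± 0.05 SE), while Wdfy3, the ALFY scaffold that works with p62, was lower (-0.61 ± 0.06). Ncoa4, the receptor for ferritin, was lower (-0.38 ± 0.06, but -0.01 with median scaling). The other gene counted as higher was the mitophagy receptor Fundc1, whose probe was well above background on no control array and on 4 NM401 arrays. It entered the test only through the NM401 group, so its call supports nothing here and no fold is given. Its groups lay 0.16 apart, and it was not followed through the alternatives. Of the genes for fusion with lysosomes, 2 of 8 were higher and 2 lower. The SNARE Snap29 (0.45 ± 0.06) and the tethering factor Tecpr1 (0.38 ± 0.05) were higher, and the adaptor Plekhm1 was lower (-0.35 ± 0.08, 0.02 with median scaling).

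Around Tfeb, 1 of 14 relatives and regulators was higher and 4 were lower. The higher one was the relative Mitf (0.55 ± 0.16 SE, limma adjusted p = 0.0198). Another relative, Tfec, differed by 0.22 ± 0.09 (limma adjusted p = 0.0538), and 1 of its 2 tested probes was called higher (0.67). Mitf and Tfec are named after their values were seen and were not followed through the alternatives. Flcn, which helps hold TFEB in the cytoplasm when nutrients are plentiful, was lower (-0.52 ± 0.06 SE), as was Foxo1, another factor of autophagy genes (-0.66 ± 0.18, lost with slide as a block, adjusted p = 0.213). Tfe3, the closest relative of Tfeb, was lower by a small amount (-0.19 ± 0.06), which turned to 0.18 with median scaling. Its call was lost in 8 further alternatives: normexp correction, quantile normalisation, no filter on dim probes, the deposited series values, slide as a block, within slide 1, and without NM401 replicate 3 or 4 (adjusted p 0.0550 to 0.347). For mTORC1, the kinase that inactivates ULK1 and TFEB, and its lysosomal anchor, 5 of 17 tested genes were higher and 3 lower. Mtor (-0.61 ± 0.08) and Rptor (-0.46 ± 0.07) were lower, and the anchor subunit Lamtor1 was higher (0.54 ± 0.06). Of 5 tested subunits of the AMP-activated kinase and its activator, 1 was higher, Prkag1 (0.40 ± 0.05), and 1 lower, Prkab1 (-0.19 ± 0.05, 0.18 with median scaling, lost with quantile normalisation, no filter on dim probes, slide as a block, within slide 1, the replicate block (adjusted p = 0.0523) and without NM401 replicate 4, adjusted p = 0.0535), while Prkab2 differed by 0.07 ± 0.11 (limma adjusted p = 0.589, -0.07 under normexp correction). Of 18 tested lysosomal genes known as TFEB targets, 3 were higher and 6 lower, with a median of -0.15. Psap, the saposin precursor, was lower (-0.55 ± 0.08), as was the lysosomal hydrolase Naglu (-0.41 ± 0.06). With median scaling, the calls of 12 genes named in these lists were lost without a change of sign. Differences were then near 0 for Rb1cc1 (-0.0062), Atg10 (-0.0030), Ncoa4 (-0.0091), Naglu (-0.047) and Rptor (-0.093). They were -0.30 to -0.11 for Pik3c3, Atg2a, Atg2b, Flcn, Foxo1, Mtor and Psap. With slide as a block, Rb1cc1, Atg2b, Atg4a, Atg10, Tfe3, Foxo1 and Prkab1 did not pass the test. Within slide 1, with 1 NM401 array, only 4 of these 107 genes were called higher and 5 lower.

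**Figure D4:**
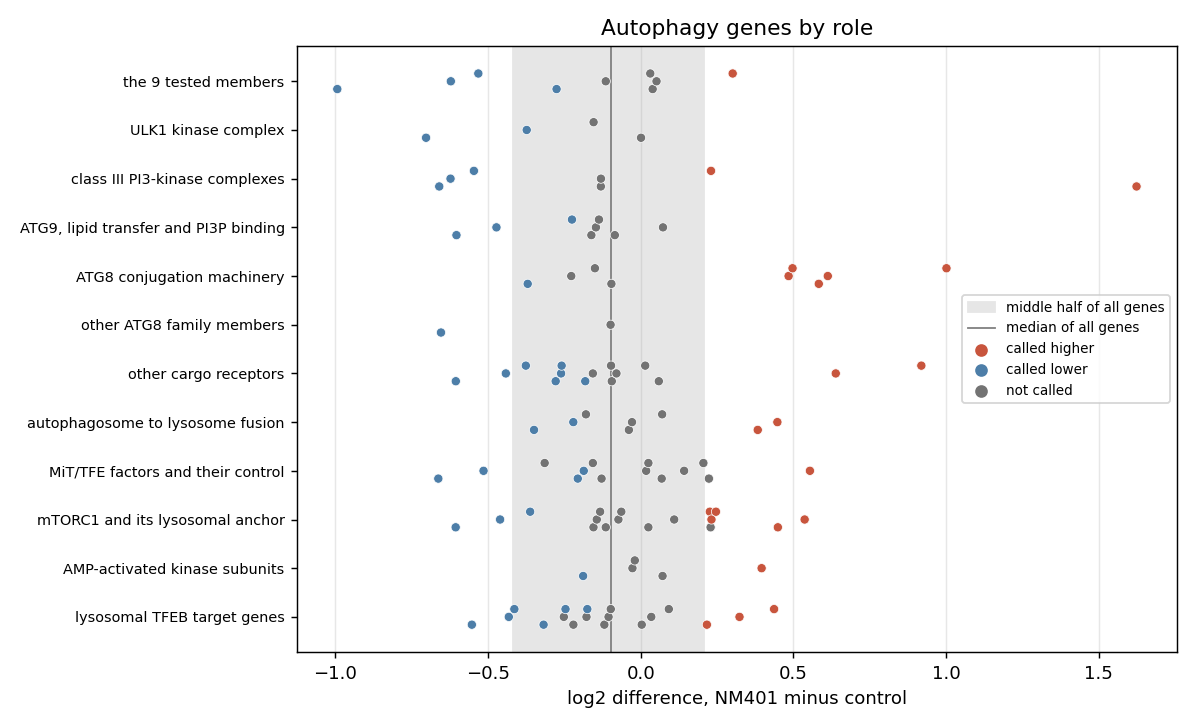
Each point is the log2 difference (NM401 minus control) of 1 tested gene, in a row for the 9 members and for each of the 11 lists, coloured by its call. The grey band runs from the lower to the upper quartile of all genes (-0.42 to 0.21) and the line their median (-0.10), and the conjugation list has 5 points right of the band, from 0.48 to 1.00.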

How the data were processed

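Gene expression of 8 samples was measured on 1-colour arrays. The scanner files deposited by the authors hold spot intensity. Per the file headers it came from Agilent Feature Extraction (version 11.0.1.1), with the processed signal background-subtracted and detrended and not scaled between arrays. Whether a spot was well above background, saturated or an outlier was taken from the software's flags in the deposited files. The deposited series values equalled the median pixel intensity of the spot in 503808 of 503808 comparisons.

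The main value was log2 of the processed signal minus the array's 75th percentile over 58717 non-control spots. Outlier spots were left out and spots of a probe averaged. Probes detected above background on 4 or more arrays (21684) were tested two-sided in limma 3.58.1 by lmFit and eBayes, with no covariate, in R 4.3.3 with the data.table package (version 1.17.8), and adjusted by Benjamini-Hochberg over all of them. A gene was represented by its brightest tested probe (17444 genes). No fold is given against a group with no array well above background. The fit was tested on simulated data. Probe positions are the files' own, on rn4. All members and up to 3 genes with the smallest p in each of 11 lists are named. The members and lists were chosen with earlier results of these data known. Of the 116 list genes, Rubcn, Rragb, Gla and Sgsh matched no probe, and those too dim to test included Atg9b, Retreg1, Prkaa2 and Prkag2. Not every gene the naming rule picks is reported here.

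The alternatives were normexp (offset 50), quantile and median scaling, other filters, the deposited series values, slide as a block or the first slide alone, a replicate block, the mean of a gene's probes, accession matches, and leaving out each array. Ratios of probes within an array were added after seeing the data, as a description with no test.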

Additional observations from a re-analysis of the deposited data

Results flagged for a closer look

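In 3 of 38 groups of 4 values of a member probe, 1 control array stood apart from the other 3, with a gap above the 95% critical value of Dixon's test. Chance gives about 1 in 20 such groups. For Atg7 probe A_44_P1105100, control replicate 3 was at -4.69 and the other controls at -5.14 to -5.11. For Map1lc3b probe A_44_P1370656, control replicate 3 was at 1.08 and the others at 0.92 to 0.94. For Sqstm1 probe A_64_P149735, control replicate 1 was at 1.73 and the others at 2.02 to 2.04, all below the NM401 arrays.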

How the results depend on the processing

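Ulk1 and Atg7 probe A_44_P335514 kept their direction and call under all 19 alternatives, and Gabarap kept its direction. Median scaling gave 5 members, 9 member probes, 54 list genes and 8253 of all genes higher, and 1, 3, 5 and 1975 lower. Quantile normalisation gave 3 members and 6 member probes higher. Normexp gave 0 members higher and 9403 of all genes lower. Without the filter on dim probes 0 members and 1 member probe were higher. The series values gave 0 members higher, and the mean of a gene's probes gave 2. With slide as a block 4 member probes and 21 list genes were lower, and 2216 of all genes were higher and 3525 lower. Within slide 1, where NM401 has 1 array and is assumed to vary like the controls, 0 members, 0 member probes, 4 list genes and 752 of all genes were higher, and 2, 3, 5 and 1362 were lower. Leaving out 1 array gave 0 to 1 members higher (0 without control replicate 2, 3 or 4 or NM401 replicate 1, 2 or 3) and 1 to 3 member probes higher (1 without NM401 replicate 2 or 3).

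Signs turned as follows. With median scaling, differences were 0.092 for Map1lc3b (0.083 for A_44_P1086839 and 0.22 for A_44_P430939), 0.25 for Sqstm1, 0.21 for Atg13, 0.14 for Wdr45b, 0.27 for Gabarapl2, 0.018 for Plekhm1, 0.18 for Tfe3 and 0.18 for Prkab1. With quantile normalisation they were 0.14 for Sqstm1 and 0.025 for Atg13. With normexp they were -0.010 for Atg5, -0.048 for Tfeb, 0.010 for Gabarapl2, -0.074 for Prkab2 and -0.086 for Bcl2. With the series values they were -0.0022 for Becn1, -0.0092 for Tfeb, 0.0094 for Gabarapl2 and -0.031 for Prkab2. With slide as a block, and likewise within slide 1, they were -0.063 for Tfeb and -0.033 for Prkab2. The mean of its probes gave 0.21 for Sqstm1. Over the arrays left out, Becn1 ranged from -0.0055 (without NM401 replicate 1) to 0.061, and Atg13 from -0.29 to 0.063 (without control replicate 3). The causes were not tested.

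The labels number the replicates 1 to 4 in both groups. Deviations from the group means of same-numbered arrays correlated at 0.19, -0.01, 0.09 and -0.06, and not every array correlated best with its own number, so the numbers were not taken to pair the samples. With a replicate block 1 member was higher and 4 lower, 3 and 7 member probes, 21 and 29 list genes, and 3535 and 5845 of all genes. Among the named genes followed through the alternatives, the block ended the calls of Wdr45b and Prkab1 (adjusted p = 0.0623 and 0.0523) and changed no other.

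Probes near background, among them those of Wipi1, Atg5 and Atg7 variants X1 and X3, limit what the arrays can resolve.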
